A study of Homo sapiens with 18 samples.

Results

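Noncoding genes that carry small nucleolar RNAs (snoRNAs) in their introns, GAS5, SNHG1, SNHG3, SNHG5, SNHG6, SNHG7, SNHG8, SNHG12, SNHG15 and SNHG16, were followed in human lymphoma cells given the histone demethylase inhibitor JIB-04. They were chosen by symbol, under a rule that used no measured value but was drawn up with earlier results of these data known, and all 10 were found among the 23686 gene symbols of the count and TPM tables of both cell lines. The cells were OCI-Ly1 and TMD8, established lines derived from diffuse large B-cell lymphoma. JIB-04 is a small molecule that inhibits Jumonji-domain histone demethylases, and the series' title concerns heterochromatin fidelity as a vulnerability of lymphoma and of other cancers. Each line was sampled with 0.01% DMSO as vehicle, with 150 nM JIB-04 and with 500 nM JIB-04, in 3 libraries per group and 18 libraries in all. The culture medium was IMDM for OCI-Ly1 but RPMI for TMD8, each with fetal serum, so that line and medium changed together. No treatment time, batch or date was stated. The RNA was depleted of ribosomal RNA and sequenced as read pairs on an Illumina HiSeq. Libraries were made as technical triplicates, and it was not stated whether the 3 of a group came from separate cultures, so the p-values measure only the spread between these libraries, which may be technical.

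A snoRNA host gene is transcribed and spliced like a messenger RNA. The snoRNA is trimmed out of an excised intron and assembled with proteins: C/D box snoRNAs guide 2′-O-methylation of ribosomal RNA through fibrillarin, and H/ACA box snoRNAs guide pseudouridylation through dyskerin. The spliced exons left over often hold only short open reading frames. They are read by ribosomes and are then known to be degraded by nonsense-mediated decay, a pathway that acts on translated RNA with an early stop codon, so the steady level of many hosts reflects decay as well as transcription. Several hosts also start with a terminal oligopyrimidine tract, the 5′ signature of ribosomal protein mRNAs, which ties translation to growth signals.

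The host start sites are shown because that tract is a feature the choice of genes did not use. Below are 80 bases around the annotated start of 5 hosts, 30 before it and 50 from it, read 5′ to 3′ on the strand of the gene from RefSeq on GRCh38.p14. Capitals mark the run of at least 5 pyrimidines (C or T) beginning with C that lies within 10 bases of the start, or, where there is none, the first such run after the start.
GAS5 (chr1:173868996-173869075, minus strand): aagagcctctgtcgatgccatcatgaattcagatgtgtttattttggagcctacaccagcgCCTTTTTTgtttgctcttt
SNHG1 (chr11:62855836-62855915, minus strand): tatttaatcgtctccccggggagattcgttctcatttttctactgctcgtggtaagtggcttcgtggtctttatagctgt
SNHG3 (chr1:28505913-28505992, plus strand): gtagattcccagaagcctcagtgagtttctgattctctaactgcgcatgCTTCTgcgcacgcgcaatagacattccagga
SNHG12 (chr1:28581824-28581903, minus strand): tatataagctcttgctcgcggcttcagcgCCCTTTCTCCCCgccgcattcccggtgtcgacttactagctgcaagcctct
SNHG16 (chr17:76557734-76557813, plus strand): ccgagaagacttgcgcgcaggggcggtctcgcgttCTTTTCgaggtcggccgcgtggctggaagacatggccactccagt
SNHG12 has a run of 12 pyrimidines that begins 1 base before the annotated start, and SNHG16 has 6 beginning at base 6. In GAS5 the first run after the start, of 8, begins only at base 32, and in SNHG3 a run of 5 begins at base 20. SNHG1 has no run beginning with C within 10 bases of the start or after it in these letters. Its stretch of pyrimidines that begins with T, within 10 bases of the start, was not counted by this search. Among the 8 hosts that the promoter table holds, 5 (SNHG5, SNHG7, SNHG8, SNHG12 and SNHG16) had such a run within 10 bases of the start. Of all 35116 promoters in that table, searched the same way on the strand of the gene, 31.4% had such a run. A run of this kind is a description of the letters at the annotated start, not a mapped start site.

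The products of the introns are shown by 3 of the C/D box snoRNAs inside SNHG1, from the GENCODE v29 transcripts on GRCh38. They are those in which both boxes were found in their exact letters; of the 6 SNHG1 snoRNAs with a sequence there, SNORD22, SNORD26 and SNORD28 did not hold the C box in these letters. Capitals mark the letters of the C box, TGATGA, and of the D box, CTGA, the pair of motifs that binds the core proteins.
SNORD25 (chr11:62855564-62855632, minus strand): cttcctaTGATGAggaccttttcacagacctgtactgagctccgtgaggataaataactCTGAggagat
SNORD27 (chr11:62855012-62855083, minus strand): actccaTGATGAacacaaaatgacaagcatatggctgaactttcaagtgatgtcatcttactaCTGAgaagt
SNORD30 (chr11:62853663-62853732, minus strand): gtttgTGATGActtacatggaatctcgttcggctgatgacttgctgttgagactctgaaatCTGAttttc
Both boxes in these exact letters were found in 214 of 288 GENCODE SNORD transcripts (74.3%), searched on the transcribed strand. The tables held 32 of the 34 snoRNAs listed for the 10 hosts, and all 32 lay inside their host in the RefSeq table, so host and snoRNA could be read in the same libraries.

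The OCI-Ly1 libraries summed to 17579732 to 32651115 estimated counts, against 9550092 to 20509500 for TMD8. Members had between 198 and 8475 counts per library, so all 10 passed the filter on low counts in both lines. B-cell markers were present in every group, with 6 of 6 above 1 CPM (counts per 1000000) and a summed level of 1280 to 1330 CPM in OCI-Ly1 with DMSO. Germinal-centre markers summed to 714 to 736 CPM in OCI-Ly1 and 134 to 137 CPM in TMD8 with DMSO, and activated-type markers to 599 to 619 and 4930 to 5280 CPM. LMO2, on the germinal-centre list, went against that order, at 0.0132 ± 0.0229 CPM in OCI-Ly1 and 55.1 ± 0.874 CPM in TMD8. Several sums moved with the dose. At 500 nM the B-cell sum was 1110 to 1150 CPM in OCI-Ly1, and in TMD8 it went from 2750 to 2920 CPM down to 2310 to 2350 CPM. The germinal-centre sum in OCI-Ly1 was 605 to 629 CPM at 500 nM, and the activated-type sum 925 to 972 CPM in OCI-Ly1 and 3700 to 3740 CPM in TMD8. The T-cell sum went from 20 to 24.6 CPM to 9.27 to 10.2 CPM in OCI-Ly1. The sum of the 4 epithelial and fibroblast genes went from 18.6 to 19.3 CPM to 45.9 to 48.5 CPM in TMD8, with COL1A1 at 3.502 ± 0.408 and 29.8 ± 0.366 CPM. Myeloid markers summed to at most 1.95 CPM in any library. The part of these markers in the results below was not tested. In these bulk libraries fewer cells of a kind and less RNA per cell cannot be told apart. The estimated counts of GAS5, SNHG1, SNHG5, SNHG6, SNHG8, SNHG12 and SNHG15 were whole, within 0.05, in 18 of 18 libraries. Those of SNHG3 and SNHG7 were whole in 1 library each and those of SNHG16 in 4, so reads of these 3 hosts were divided with other rows and their levels are less certain. No strand of counting was stated, so reads of antisense or overlapping genes cannot be told apart from those of the hosts.

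The steady levels before treatment were compared between genes on the TPM scale (transcripts per 1000000, which divides by length), as mean ± SD of 3 libraries, within a line only. In OCI-Ly1 with DMSO, GAS5 stood at 353 ± 11.3 TPM and SNHG6 at 329 ± 31.0 TPM, less apart than the sum of their SDs. SNHG8 followed at 228 ± 8.72 TPM and SNHG1 at 227 ± 11.1 TPM, again not separated, and then SNHG15 at 159 ± 12.6 TPM and SNHG5 at 96.9 ± 6.23 TPM. SNHG16, SNHG12, SNHG7 and SNHG3 lay together between 74.6 and 77.2 TPM. In TMD8 with DMSO the order was SNHG8 at 217 ± 21.2 TPM and GAS5 at 193 ± 19.1 TPM, not separated, then SNHG6 at 111 ± 11.9 TPM. SNHG1 at 84.6 ± 10.1 TPM and SNHG16 at 77.2 ± 4.97 TPM did not differ beyond their spread. SNHG5 (54.4 ± 8.28 TPM), SNHG3 (45.7 ± 1.42 TPM), SNHG15 (42.4 ± 5.79 TPM) and SNHG7 (38.2 ± 0.989 TPM) each lay within the spread of the next. SNHG12 was the lowest at 23.7 ± 1.25 TPM. GAS5, SNHG6, SNHG8 and SNHG1 were thus the 4 highest hosts in either line, with SNHG16 not separated from SNHG1 in TMD8.

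All values by library that follow are normalised read counts in CPM, scaled by TMM (trimmed mean of M values), and changes are log2 fold changes from the quasi-likelihood test of edgeR. P-values were adjusted by Benjamini-Hochberg over all genes tested, with a call at an adjusted p under 0.05. The summed level of the 10 hosts hid movements in both directions: in OCI-Ly1 it was 915 to 931 CPM with DMSO, 911.5 to 947 at 150 nM and 970.5 to 1050 at 500 nM. In TMD8 it was 954 to 980 CPM with DMSO, 822 to 891 at 150 nM and 783 to 792 at 500 nM. At 500 nM the sum lay above the DMSO libraries in OCI-Ly1 and below them in TMD8, with no overlap in either line.

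**Figure D1:**
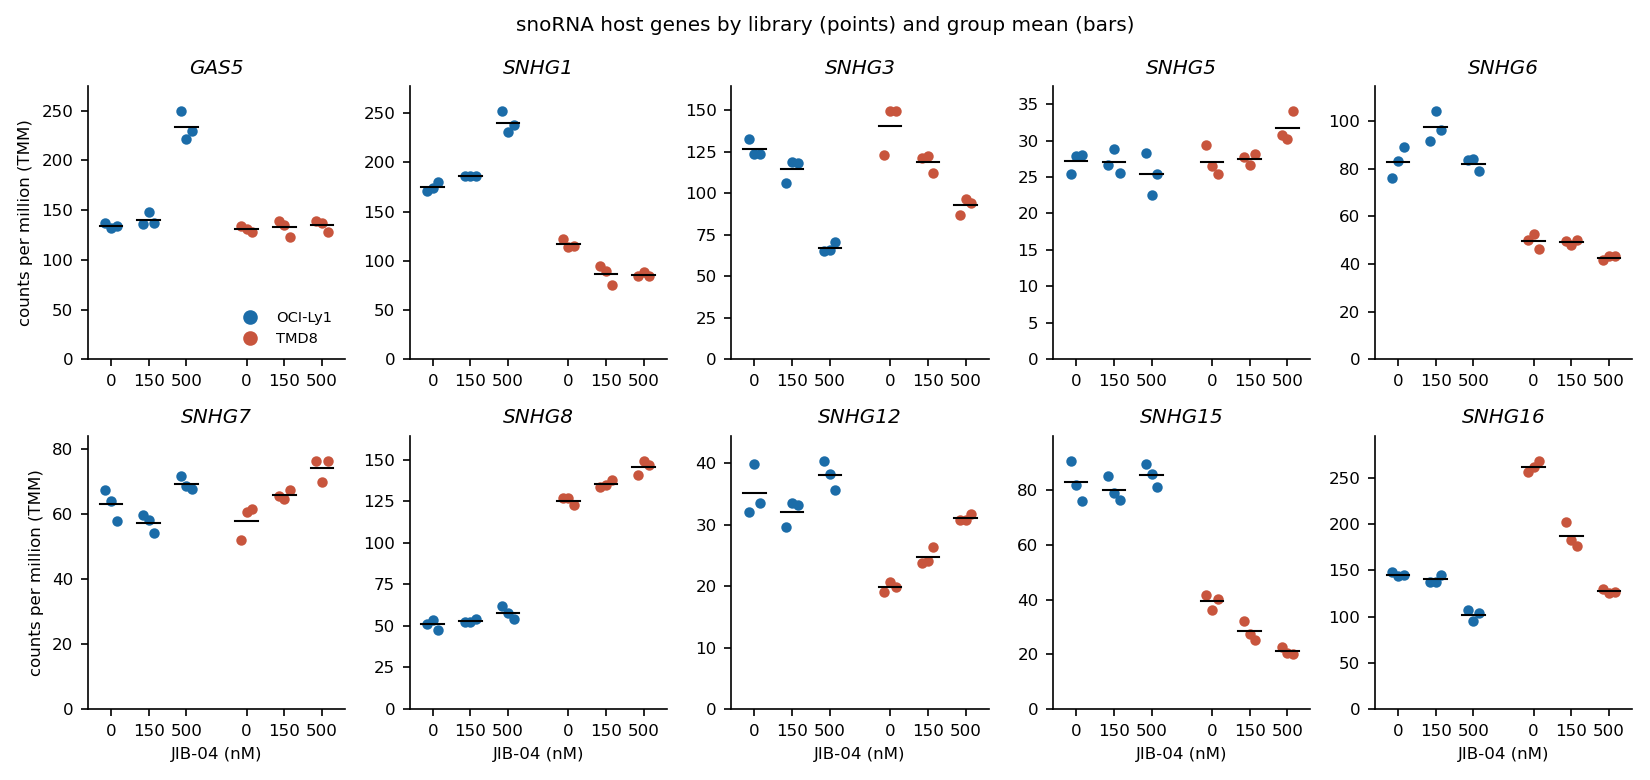
Normalised read counts (TMM CPM, y axis from 0, a separate scale per gene) of the 10 host genes against the dose of JIB-04 (nM, x axis; 0 is DMSO) in OCI-Ly1 and TMD8; points are libraries and bars are means of 3. GAS5 at 500 nM in OCI-Ly1 lies between 222 and 250 CPM against 132 to 137 CPM with DMSO, while SNHG16 in TMD8 falls from between 256 and 269 CPM to between 126 and 129 CPM.

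At 500 nM in OCI-Ly1, GAS5, SNHG1 and SNHG8 rose and SNHG3 and SNHG16 fell. The other 5 hosts did not pass the test. Thus 3 of 10 members were called higher, where 27.7% of the 15638 genes tested were, and 2 of 10 lower, where 25.9% were, shares near the background. The median change of the members was 0.08 on the log2 scale, beside 0.00 for all genes tested. At 150 nM no member was called in OCI-Ly1, where 0.748% of genes were called higher and 0.141% lower. At an unadjusted p under 0.05, 2 members passed there, SNHG6 and SNHG3, beside 10.2% of all genes, and DESeq2 called 1. The same DMSO libraries served for both doses.

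In TMD8 some hosts were called at 150 nM too, as were many of all genes tested. The shares of members called were not tested against those of all genes. At 150 nM, 2 of 10 were called higher (SNHG7 and SNHG12), beside 19.2% of the 15363 genes tested, and 4 of 10 lower (SNHG1, SNHG3, SNHG15 and SNHG16), beside 25.0%. At 500 nM, 4 were called higher (SNHG5, SNHG7, SNHG8 and SNHG12), beside 29.9%, and 5 lower (SNHG1, SNHG3, SNHG6, SNHG15 and SNHG16), beside 30.7%. Only GAS5 was not called there. The median change of the members at 500 nM was -0.09, beside 0.04 for all genes.

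**Figure D2:**
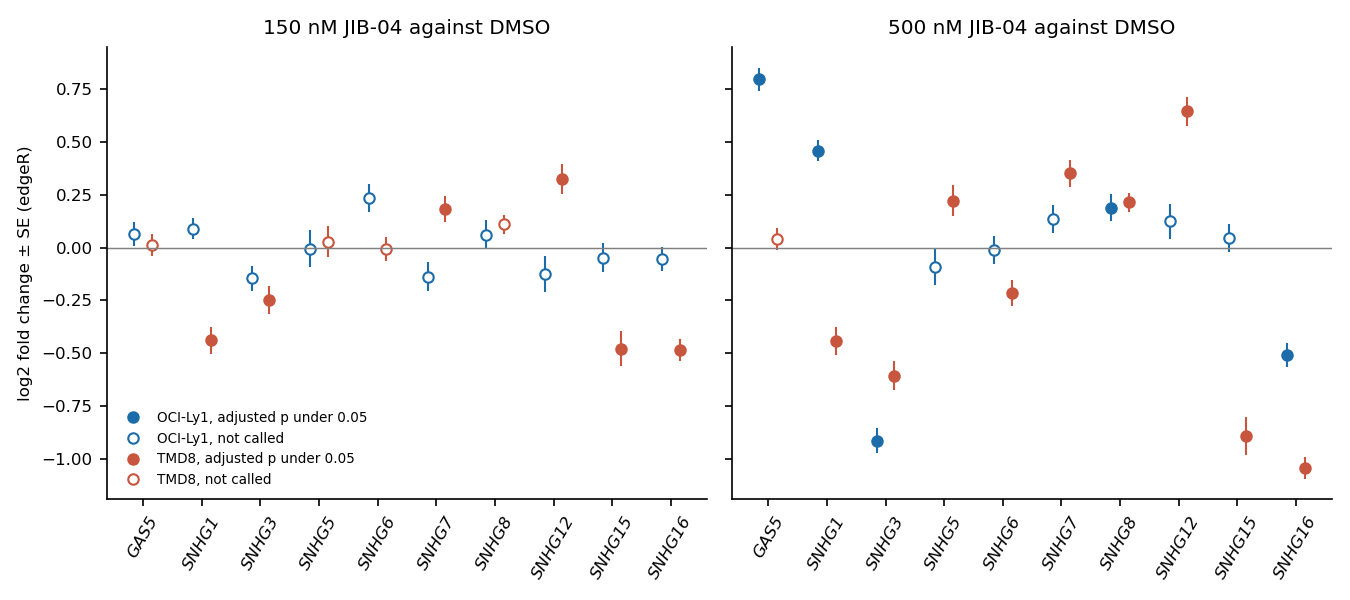
Log2 fold change against DMSO from edgeR (y axis, bars are 1 standard error) of each host gene (x axis), a panel for 150 nM and for 500 nM JIB-04, with filled points for genes called at an adjusted p under 0.05. At 150 nM all OCI-Ly1 points are open, and at 500 nM SNHG1 lies at 0.46 in OCI-Ly1 and at -0.44 in TMD8.

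Among the hosts of C/D box snoRNAs, GAS5 showed the largest rise in OCI-Ly1 at 500 nM. GAS5 carries 10 C/D snoRNAs, and its spliced RNA, named for its accumulation in growth-arrested cells, is a textbook target of nonsense-mediated decay. Its CPM in OCI-Ly1 were 136.8, 132.0 and 134.3 in the DMSO libraries, 136.0, 147.6 and 137.5 in those given 150 nM, and 249.8, 221.7 and 229.1 in those given 500 nM. Every 500 nM library was above every other library of that line, a change of 0.80 ± 0.056 (SE) on the log2 scale or 1.74-fold (edgeR adjusted p = 2.04e-09). In TMD8 the CPM of GAS5 were 134.2, 130.9 and 128.4 in the DMSO libraries, 139.2, 135.3 and 123.0 in those given 150 nM, and 139.1, 137.0 and 128.4 in those given 500 nM. These groups overlapped in CPM, and the change of 0.04 was not called (edgeR adjusted p = 0.508). On the TPM scale the change was -0.33 and was called lower (limma adjusted p = 0.0105). The libraries there went from 177.4 to 214.3 TPM with DMSO to 147.6 to 156.8 TPM at 500 nM. The change in OCI-Ly1 exceeded that in TMD8 by 0.79 ± 0.082 (edgeR adjusted p = 2.28e-08).

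SNHG1, the host of 8 C/D snoRNAs including SNORD25, SNORD27 and SNORD30 shown above, moved in opposite directions in the 2 lines. In OCI-Ly1 its CPM were 171.0, 174.2 and 180.4 in the DMSO libraries, 186.4, 186.7 and 186.3 in those given 150 nM, and 252.5, 231.1 and 238.2 in those given 500 nM. The 3 groups did not overlap, the rise at 500 nM was 0.46 ± 0.050 (edgeR adjusted p = 5.70e-07), and that at 150 nM was 0.09 and not called (0.577). In TMD8 they were 122.0, 114.6 and 114.7 in the DMSO libraries, 94.91, 89.37 and 75.55 in those given 150 nM, and 84.89, 88.65 and 84.40 in those given 500 nM. SNHG1 fell there by 0.44 at both doses against the shared DMSO libraries, and the 2 doses overlapped. The difference between the lines was 0.93 ± 0.090 at 500 nM (edgeR adjusted p = 5.78e-09) and 0.54 ± 0.090 at 150 nM (0.000103).

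SNHG16 carries 3 C/D snoRNAs (SNORD1A, SNORD1B and SNORD1C) and fell in both lines. In OCI-Ly1 it went from 147.9, 143.5 and 144.6 CPM with DMSO and 137.5, 137.6 and 145.3 CPM at 150 nM to 107.5, 94.83 and 104.3 CPM at 500 nM, a change of -0.51 ± 0.057 (edgeR adjusted p = 7.82e-07). In TMD8 it went from 256.2, 261.7 and 268.6 CPM to 202.7, 183.3 and 176.2 CPM at 150 nM and 129.4, 125.8 and 126.4 CPM at 500 nM. The 3 dose groups of TMD8 were fully separated, and the fall of 1.04 (2.06-fold, edgeR adjusted p = 2.12e-11) was the largest change among the members in that line. It was larger in TMD8 than in OCI-Ly1, with a line difference of 0.57 ± 0.080 (edgeR adjusted p = 2.36e-06).

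The remaining C/D hosts, SNHG5 and SNHG6, moved little. SNHG5, the host of SNORD50A and SNORD50B, ranged from 22.54 to 28.89 CPM over the 9 OCI-Ly1 libraries, with all groups overlapping. In TMD8 it was 29.40, 26.52 and 25.35 CPM with DMSO and 30.71, 30.22 and 34.07 CPM at 500 nM, a rise of 0.22 (edgeR adjusted p = 0.0138) that became -0.14 and uncalled on the TPM scale, and 0.11 and uncalled on centred TPM. That call was lost without DMSO replicate 3 (adjusted p = 0.0736) or without 500 nM replicate 3 (0.0779). SNHG6, the host of SNORD87, stood at 76.13, 83.27 and 89.05 CPM in OCI-Ly1 with DMSO, 91.78, 104.4 and 96.24 CPM at 150 nM and 83.54, 84.03 and 78.94 CPM at 500 nM. The 150 nM libraries were the highest, but the change of 0.24 was not called (edgeR adjusted p = 0.133), and that at 500 nM was -0.01. In TMD8 SNHG6 fell by 0.22 at 500 nM, from 46.43 to 52.48 CPM with DMSO to 41.59 to 43.37 CPM. It was not called by library size alone (-0.12, edgeR adjusted p = 0.0789) or without the 6 highest rows (-0.04, limma adjusted p = 0.556). That last setting is log2(TPM + 1), rescaled after the 6 highest rows of each line were taken out of both lines.

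Among the hosts of H/ACA box snoRNAs, SNHG3 had the largest fall in OCI-Ly1. SNHG3 is the host of the U17 snoRNA, which acts in the processing of ribosomal RNA; its snoRNAs were not analysed here. Its CPM in OCI-Ly1 were 132.6, 123.8 and 123.6 in the DMSO libraries, 106.3, 118.9 and 118.4 in those given 150 nM, and 65.31, 65.91 and 70.45 in those given 500 nM. The 3 groups were separated, with a change at 500 nM of -0.91 ± 0.061 (1.89-fold lower, edgeR adjusted p = 9.21e-10). In TMD8 they were 122.9, 149.5 and 149.6 in the DMSO libraries, 121.5, 122.6 and 112.1 in those given 150 nM, and 87.13, 96.58 and 94.12 in those given 500 nM, a fall of 0.61 at the higher dose. SNHG3 fell by 0.25 at 150 nM in TMD8 (edgeR adjusted p = 0.006), a call lost without 150 nM replicate 3 (adjusted p = 0.0653), by library size alone (-0.17) and without the 6 highest rows (-0.13).

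SNHG15, the host of SNORA9, moved in TMD8. In OCI-Ly1 it ranged from 75.98 to 90.76 CPM over 9 libraries, the groups overlapped, and the change of 0.05 at 500 nM was not called (edgeR adjusted p = 0.595). In TMD8 its CPM were 41.65, 36.16 and 40.19 in the DMSO libraries, 32.22, 27.49 and 25.35 in those given 150 nM, and 22.61, 20.42 and 20.26 in those given 500 nM. The 3 groups were again separated, with falls of 0.48 and 0.89 (1.86-fold at the higher dose). The line difference of 0.97 ± 0.12 at 500 nM (edgeR adjusted p = 3.32e-07) was the largest of the 10 hosts.

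SNHG12 carries the H/ACA snoRNAs SNORA16A, SNORA44 and SNORA61 and the C/D snoRNA SNORD99, and it rose in TMD8. Its CPM there were 18.98, 20.69 and 19.82 in the DMSO libraries, 23.80, 24.10 and 26.44 in those given 150 nM, and 30.71, 30.75 and 31.82 in those given 500 nM. The groups were separated, with rises of 0.33 (edgeR adjusted p = 0.00104) and 0.65, or 1.56-fold at 500 nM. The value at 150 nM was 0.16 and not called on the TPM scale. In OCI-Ly1 it ranged from 29.70 to 40.43 CPM and the change of 0.12 at 500 nM was not called (edgeR adjusted p = 0.221). The response was larger in TMD8 by 0.49 ± 0.11 (edgeR adjusted p = 0.000826), but on the TPM scale the difference was -0.01 and not called (limma adjusted p = 0.94).

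SNHG7 and SNHG8 changed by small amounts. SNHG7, the host of SNORA17 and SNORA43, was 51.93, 60.50 and 61.42 CPM in TMD8 with DMSO, 65.67, 64.65 and 67.26 CPM at 150 nM and 76.38, 69.95 and 76.21 CPM at 500 nM. The rise of 0.35 at 500 nM became -0.07 on the TPM scale. The call at 150 nM (0.18, edgeR adjusted p = 0.0244) was lost without DMSO replicate 1 (adjusted p = 0.0883), on the TPM scale (0.0017) and on centred TPM (0.10). In OCI-Ly1 SNHG7 changed by 0.14 at 500 nM (edgeR adjusted p = 0.0876). SNHG8, the host of SNORA24, rose by 0.19 in OCI-Ly1 and by 0.21 in TMD8 at 500 nM, but on the TPM scale the values were 0.01 and -0.20, and centred on the library median -0.21 and 0.05. Its CPM in OCI-Ly1 were 51.23, 53.70 and 47.74 in the DMSO libraries and 62.00, 57.46 and 54.34 in those given 500 nM. That call was lost without DMSO replicate 3 (edgeR adjusted p = 0.109) or without 500 nM replicate 1 (0.138). In TMD8 the 3 groups of SNHG8 were separated, at 122.4 to 126.9, 133.6 to 137.5 and 140.5 to 149.3 CPM.

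The 2 doses were also compared directly. In OCI-Ly1, 4 members were higher at 500 nM than at 150 nM (GAS5 by 0.73, SNHG1 by 0.37, SNHG7 by 0.27 and SNHG12 by 0.25), beside 25.1% of genes, and 3 lower (SNHG3 by -0.77, SNHG16 by -0.45 and SNHG6 by -0.25), beside 21.1%. The SNHG12 call was lost without 150 nM replicate 1 (edgeR adjusted p = 0.0979), without 500 nM replicate 1 (0.118) or without 500 nM replicate 2 (0.0607), and on centred TPM (0.15). The SNHG6 call was lost on the TPM scale (-0.15, limma adjusted p = 0.137) and without the 6 highest rows (-0.03, 0.789). In TMD8, 1 member was higher at 500 nM than at 150 nM (SNHG12 by 0.32), beside 13.7%, and 4 lower (SNHG16 by -0.56, SNHG15 by -0.41, SNHG3 by -0.36 and SNHG6 by -0.21), beside 15.0%. SNHG6 was no longer called there without 500 nM replicate 1 (edgeR adjusted p = 0.0781) or without the 6 highest rows (-0.14), and SNHG12 was not called on the TPM scale (0.11). For SNHG1 in TMD8 the difference between doses was 0.00 (edgeR adjusted p = 0.975), with both dose groups below DMSO.

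The response at 500 nM differed between the lines for 7 of 10 members, beside 46.4% of the 16604 genes tested. It was the more positive in OCI-Ly1 for SNHG15, SNHG1, GAS5, SNHG16 and SNHG6 and the more negative for SNHG12 and SNHG3. The SNHG3 call was lost without OCI-Ly1 DMSO replicate 1, OCI-Ly1 500 nM replicate 1, TMD8 DMSO replicate 1 or TMD8 500 nM replicate 2 (edgeR adjusted p from 0.0503 to 0.0714). The SNHG6 call was lost without OCI-Ly1 DMSO replicate 1, OCI-Ly1 500 nM replicate 1 or 2, TMD8 DMSO replicate 1 or 2, or TMD8 500 nM replicate 1 or 3 (edgeR adjusted p from 0.0523 to 0.108). On the TPM scale the SNHG3 value was 0.18 in place of -0.28, and it was -0.23 and not called without the 6 highest rows. SNHG6 was not called by library size alone (0.20) or with at least 10 counts in every library (0.21). At 150 nM, 6 members differed between the lines, beside 23.3%: SNHG1, SNHG6, SNHG15 and SNHG16 were more positive in OCI-Ly1, and SNHG7 and SNHG12 more negative. Of these, SNHG6 was lost without OCI-Ly1 DMSO replicate 1, OCI-Ly1 150 nM replicate 2 or 3, TMD8 DMSO replicate 1 or 2, or TMD8 150 nM replicate 2 or 3 (edgeR adjusted p from 0.0519 to 0.124), and SNHG7 without DMSO replicate 1 of OCI-Ly1 (0.0584) or of TMD8 (0.0544). On the TPM scale SNHG7 (-0.10) and SNHG12 (-0.25) were not called at 150 nM, nor was SNHG7 on centred TPM (-0.21). By library size alone and without the 6 highest rows SNHG6 was not called there (0.17 and 0.16).

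With DMSO alone, 7 members differed between the lines, beside 76.7% of all genes. SNHG15 (0.95), SNHG12 (0.70), SNHG6 (0.62) and SNHG1 (0.46) were higher in OCI-Ly1, and SNHG8 (-1.42), SNHG16 (-0.97) and SNHG3 (-0.27) lower, on the TMM scale. On the TPM scale the same differences were 0.07 for SNHG8, 0.00 for SNHG16 and 0.70 for SNHG3. SNHG8 and SNHG16 were thus not called on that scale (limma adjusted p = 0.467 and 0.995), though 7 of 9 alternative analyses kept each call. The direction of SNHG3 turned on the TPM scale (limma adjusted p = 2.75e-07). SNHG3 was also not called by library size alone (-0.13) or on centred TPM (-0.03). GAS5 (0.87), SNHG5 (0.83) and SNHG7 (0.95) were not called with TMM but were called higher in OCI-Ly1 on the TPM scale (limma adjusted p = 5.12e-09, 8.37e-07 and 3.78e-10). On centred TPM, GAS5 (0.15) and SNHG7 (0.23) were called too (limma adjusted p = 0.0262 and 0.00173). Line and medium cannot be told apart in this comparison.

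Other scalings were set against TMM because a few abundant small RNAs took a large share of the libraries. In TMD8 the 6 highest rows of each library held 49.5% to 68.7% of all TPM, and in OCI-Ly1 they held 14.7% to 22.8%. By mean TPM the 6 highest were MIR3687, MIR3648, MIR663A, RMRP, MIR663B and MIR4461 in TMD8. In OCI-Ly1 they were RPPH1, RMRP, MIR663A, MIR663B, HIST1H4K and MIR5047. The fits without the 6 highest rows left out both of these sets from both lines and rescaled the TPM. The median change of all genes at 500 nM was 0.00 in OCI-Ly1 and 0.04 in TMD8 with TMM, and 0.08 and 0.13 by library size alone. It was 0.10 and -0.22 on log2(TPM + 1), -0.12 and 0.03 on that scale centred on the library median, and 0.21 and 0.17 without the 6 highest rows. The share of calls that were higher was 51.6% and 49.3% with TMM. It was 64.0% and 59.4% by library size, 71.9% and 18.8% on TPM, 32.3% and 48.3% centred, and 83.8% and 67.6% without the 6 rows. The members higher and lower were 3 and 2 in OCI-Ly1 with TMM, 5 and 2 by library size and on TPM, 2 and 3 centred, and 6 and 2 without the 6 rows. In TMD8 they were 4 and 5 with TMM, 5 and 4 by library size, 1 and 6 on TPM, 2 and 5 centred, and 5 and 4 without the 6 rows. GAS5, SNHG1, SNHG3 and SNHG16 in OCI-Ly1 and SNHG1, SNHG3, SNHG12, SNHG15 and SNHG16 in TMD8 kept their call and their direction at 500 nM under all 10 alternative analyses run and without any 1 of the 6 libraries compared. Across those 10 alternatives GAS5 in OCI-Ly1 lay between 0.70 and 1.05, and SNHG16 in TMD8 between -1.41 and -0.86.

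**Figure D3:**
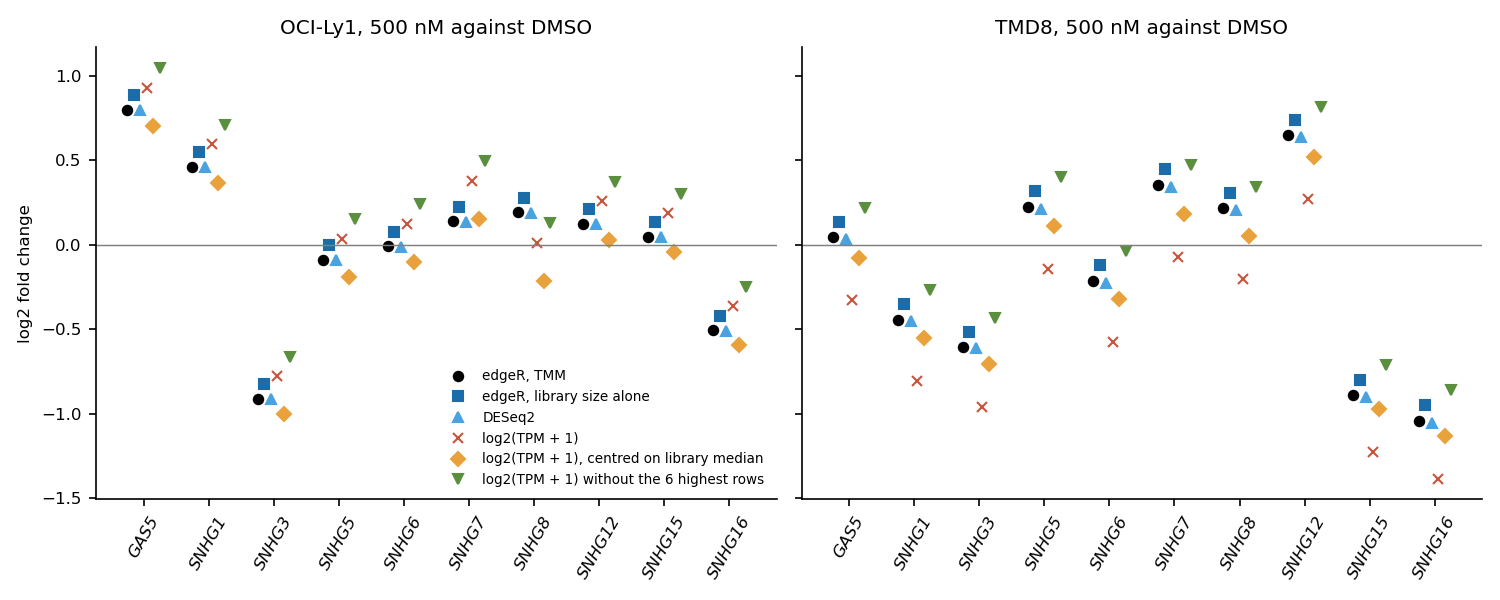
Log2 fold change at 500 nM against DMSO (y axis) of each host gene (x axis) under TMM and the alternative scalings and tools, a panel per line. GAS5, SNHG1, SNHG3 and SNHG16 in OCI-Ly1 and SNHG1, SNHG3, SNHG12, SNHG15 and SNHG16 in TMD8 keep their sign under every setting plotted, whereas SNHG5, SNHG7 and SNHG8 in TMD8 cross 0.

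Whether the mix of transcripts changed was read from the ratio of estimated count to TPM, which for a gene follows the mean effective length of the transcripts in use; it was centred in each library and tested with limma. In OCI-Ly1 at 500 nM, 1 member was called, SNHG7, at -0.11 on the log2 scale (limma adjusted p = 0.0258), beside 0.679% of 13987 genes. That call was lost without DMSO replicate 1 or 3 or any 1 of the 500 nM libraries. SNHG8 in OCI-Ly1 had a larger difference of 0.31 that was not called (limma adjusted p = 0.0928). For the other members of that line the difference lay between -0.01 and 0.01, within or near the 5th to 95th percentile of all genes, -0.018 to 0.0209. In TMD8 no member was called, beside 1.33% of genes. The differences there were at most 0.06 (SNHG7).

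Host RNA and the snoRNAs of its introns were then compared within each library, a ratio of counts that does not depend on the scaling between libraries. Reads of a snoRNA row can come from the mature snoRNA or from intron-bearing precursor, which cannot be told apart, and the libraries were not selected for small RNA. In OCI-Ly1 the 10 snoRNAs of GAS5 summed to 46.1 ± 0.326 CPM with DMSO and 29.6 ± 1.62 CPM at 500 nM, while their host rose. The ratio of GAS5 to their sum was 2.960, 2.885 and 2.895 in the DMSO libraries, 3.131, 2.694 and 2.866 in those given 150 nM, and 8.862, 7.593 and 7.307 in those given 500 nM. All 500 nM libraries were above all others, a log2 change of 1.44. In TMD8 the ratio was 2.771, 2.800 and 2.910 in the DMSO libraries and 3.953, 3.783 and 3.885 in those given 500 nM, a change of 0.45: the host level did not pass the test and the sum went from 46.4 ± 2.18 to 34.8 ± 1.62 CPM.

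For SNHG1 the ratio in OCI-Ly1 was 2.935, 2.972 and 2.966 in the DMSO libraries and 5.960, 6.218 and 6.355 in those given 500 nM, a change of 1.06. The sum of its 8 snoRNAs went from 59.2 ± 1.38 to 39.0 ± 2.91 CPM. In TMD8 the ratio was 3.789, 3.580 and 3.677 in the DMSO libraries and 3.691, 4.438 and 3.716 in those given 500 nM; these libraries overlapped, as host and snoRNAs both went down. SNHG8 to SNORA24 changed by 0.61 in OCI-Ly1, from 3.734, 3.560 and 4.122 to 5.255, 6.424 and 5.810. SNHG12 to its 4 snoRNAs changed by 0.54 in OCI-Ly1 (1.607, 1.719 and 1.697 to 2.352, 2.322 and 2.621) and by 0.45 in TMD8 (1.834, 2.306 and 1.903 to 2.453, 2.722 and 3.079). SNHG16 went the other way in TMD8, from 109.1, 81.88 and 87.54 to 78.56, 54.23 and 58.86, on snoRNA sums of only 2.87 and 2.04 CPM. At 150 nM the ratio of GAS5 in TMD8 lay above DMSO in every library, by 0.20. Ratios at that dose lay below DMSO in every library for SNHG7 in OCI-Ly1 (-0.38) and for SNHG5 (-0.49) and SNHG1 (-0.12) in TMD8. For SNHG7 the reads of host and snoRNA rows were divided with other rows, so that ratio is less certain. For SNHG5 in OCI-Ly1 at 500 nM the difference was 0.63, but the libraries overlapped (exact permutation p = 0.3, 0.635 adjusted). For each of the ratios named here whose groups did not overlap, the exact permutation test gave p = 0.1, the smallest that 3 libraries against 3 can give, and 0.327 after Benjamini-Hochberg adjustment over the 36 ratios tested.

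**Figure D4:**
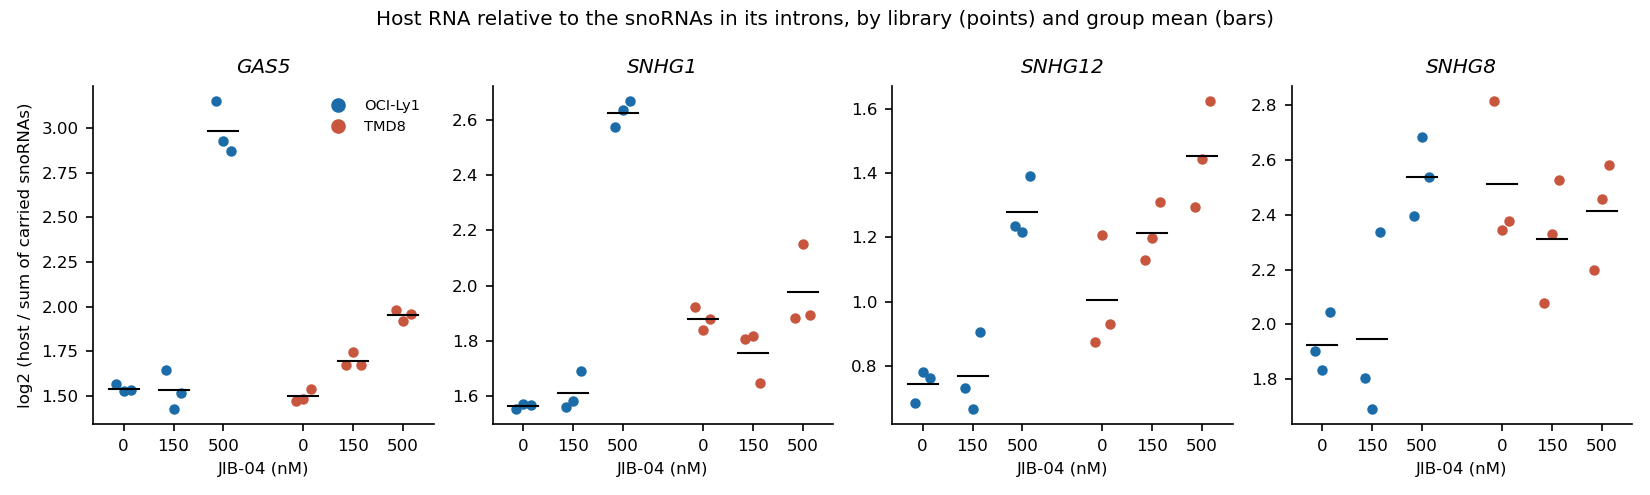
Log2 ratio of host counts to the summed counts of the snoRNAs in its introns (y axis, a separate scale per panel) against the dose of JIB-04 (nM, x axis; 0 is DMSO) for GAS5, SNHG1, SNHG12 and SNHG8; points are libraries and bars are means of 3. For GAS5 in OCI-Ly1 the log2 ratio goes from between 1.53 and 1.56 with DMSO to between 2.87 and 3.15 at 500 nM.

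Taken singly, the snoRNAs of the hosts went down more often than up at 500 nM. Of 32 tested in OCI-Ly1, 1 was called higher and 20 lower with a median change of -0.55, beside 27.7% and 25.9% of all genes. The number lower there was 14 by library size alone, 12 on centred TPM, 7 on log2(TPM + 1) and 6 without the 6 highest rows, with medians from -0.59 to -0.25. With TMM, all 8 snoRNAs of SNHG1 and 7 of the 10 of GAS5 were among those lower. SNORD78, a C/D snoRNA of GAS5, went from 4.85 ± 0.919 to 1.96 ± 0.419 CPM (-1.30, edgeR adjusted p = 0.000111), and SNORD80, also of GAS5, from 7.80 ± 0.462 to 3.94 ± 0.448 CPM (-0.98, but -0.57 and not called on the TPM scale). SNORD31, of SNHG1, changed by -0.79 in OCI-Ly1, a value of -0.36 and not called on the TPM scale, and by -1.09 in TMD8, where it fell from 3.86 ± 0.187 to 1.75 ± 0.508 CPM. In TMD8 29 passed the filter, 4 of them higher and 15 lower with a median of -0.41, beside 29.9% and 30.7% of all genes. On log2(TPM + 1) 1 was higher and 21 lower (median -0.79), and without the 6 highest rows 6 were higher and 10 lower (median -0.25). SNORD47 of GAS5 fell there by 0.93. SNORD74 in the same host rose by 0.72 in TMD8 (edgeR adjusted p = 4.1e-05); it was named after its value was seen, as the 1 snoRNA of GAS5 that was called higher. SNORA43 of SNHG7 was called higher in both lines, by 0.44 and 0.36, likewise named after its values were seen. Its estimated counts were fractional, such as 185.268 to 302.702 in OCI-Ly1 with DMSO. Reads of SNORA43 were thus divided with other rows, and its level is less certain.

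SnoRNA rows outside these hosts were also lower more often than higher in OCI-Ly1. Of the 114 other SNORD rows tested in OCI-Ly1 at 500 nM, 3 were higher and 40 lower, with a median of -0.50, beside 0 and 17 of 25 carried SNORD rows with a median of -0.72. Among SNORA rows the medians were -0.39 for 82 others and -0.23 for the 7 carried. In TMD8 the SNORD medians were -0.40 for 70 others and -0.75 for 23 carried, and the SNORA medians -0.22 for 68 others and 0.25 for 6 carried. The difference between carried and other rows was not tested, and these counts and medians are with TMM alone.

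The hosts did not share 1 pattern. Across the 18 libraries, centred by line, pairwise Pearson correlations of log2 CPM ran from -0.891 (SNHG12 with SNHG16) to 0.842 (SNHG3 with SNHG16), with SNHG7 and SNHG12 at 0.816 and GAS5 and SNHG3 at -0.828. The libraries share doses and depth, so these are descriptions. The genes outside the group whose profile was most like the mean profile of the members were B4GALT4 (r = 0.786), USP12 (0.786), COQ5 (0.779), OCIAD1 (0.761) and DYRK4 (0.752), over 18 libraries and 10280 genes. The members themselves correlated with that mean at only -0.301 (SNHG3) to 0.645 (SNHG1). These genes thus follow the mean and need not follow any single host.

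Genes whose start lies near a host were compared with it. ZBTB37, which starts 665 bases from GAS5 on the other strand, changed by 0.03 in OCI-Ly1 at 500 nM (edgeR adjusted p = 0.804), where GAS5 rose, and rose by 0.85 in TMD8, where GAS5 was not called. SLC3A2, the heavy chain of an amino acid transporter, starts 224 bases from SNHG1 on the other strand. It rose by 1.35 in OCI-Ly1 and by 0.53 in TMD8, whereas SNHG1 rose in OCI-Ly1 and fell in TMD8. RCC1, the exchange factor of the GTPase Ran, starts 100 bases from SNHG3 on the same strand; it was named beside the rule, because reads of SNHG3 were divided with other rows. RCC1 fell by 0.35 in OCI-Ly1 and by 0.76 in TMD8, as SNHG3 did, and how far reads were shared between them was not tested.

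Other hosts and the machinery of snoRNAs and of decay were described from lists, by the number called and the median change at 500 nM, beside 0.00 in OCI-Ly1 and 0.04 in TMD8 for all genes. Of all genes tested, 27.7% were called higher and 25.9% lower in OCI-Ly1, and 29.9% and 30.7% in TMD8, with TMM. The counts of the lists were not tested against these shares. Of 8 other noncoding hosts tested, 1 was higher and 4 lower in OCI-Ly1 (median -0.12), and 2 higher and 2 lower in TMD8 (median 0.02), though the sign of both medians changed under other scalings. ZFAS1, a host of C/D snoRNAs that is also degraded by nonsense-mediated decay, rose by 0.88 in OCI-Ly1, from 49.1 ± 3.52 to 90.3 ± 5.42 CPM. In TMD8 it rose by 0.18, a value that was -0.13 on the TPM scale. SNHG4 fell by 1.27 in OCI-Ly1, from 42.0 ± 0.643 to 17.4 ± 1.38 CPM, and by 0.83 in TMD8. DANCR fell by 0.43 and 0.72. SNHG10 rose by 0.73 in TMD8, while its change of 0.16 in OCI-Ly1 was not called and was -0.03 on centred TPM.

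The balance of the protein-coding hosts of snoRNAs depended on the scaling. Of 39, 1 was higher and 28 lower in OCI-Ly1 (median -0.22), and 2 higher and 21 lower in TMD8 (median -0.14) with TMM. Without the 6 highest rows the OCI-Ly1 count was 10 higher against 12 lower and the TMD8 count 9 higher against 8 lower, with both medians at 0.03. Under the other scalings tried more were lower than higher in both lines. HSPA8, the constitutive HSP70 chaperone, fell from 2742 ± 60.1 to 1165 ± 25.8 CPM in OCI-Ly1 (-1.23) and by 1.32 in TMD8. NCL, nucleolin of the nucleolus, fell by 0.68 and 0.97, and EIF4A1, the helicase of translation initiation, by 0.72 and 0.95. RPL3, a protein of the large ribosomal subunit, fell by 0.90 in OCI-Ly1. In TMD8 RPL3 fell by 0.14, a value that was 0.03 without the 6 highest rows. Of the 23 ribosomal protein hosts, 19 were lower in OCI-Ly1 and 9 in TMD8, with 0 higher in either line, with TMM.

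Proteins that bind or mature snoRNAs fell throughout TMD8: 17 of 17 were called lower at 500 nM (median -0.67), and 14 to 17 under the scalings tried. In OCI-Ly1 2 were higher and 10 lower (median -0.25, 0.00 without the 6 highest rows). RUVBL1, an ATPase of snoRNP assembly, fell by 0.55 in OCI-Ly1 and by 0.99 in TMD8, from 121 ± 1.72 to 61.2 ± 5.24 CPM. GAR1, a core H/ACA protein, fell by 0.37 and 0.98, but in OCI-Ly1 it was not called without the 6 highest rows (-0.13, limma adjusted p = 0.225). NOLC1 and NHP2 fell by 0.80 and 0.79 in TMD8; their falls of 0.16 and 0.25 in OCI-Ly1 became 0.10 and 0.00 without the 6 highest rows.

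Of 15 nonsense-mediated decay factors, 6 were higher and 3 lower in OCI-Ly1 (median 0.12), beside 27.7% and 25.9% of all genes. In TMD8 3 were higher and 6 lower (median 0.02, -0.33 on TPM), beside 29.9% and 30.7%. This balance turned with the scaling. In OCI-Ly1 9 were higher and 0 lower on log2(TPM + 1), 12 and 0 without the 6 highest rows, and 2 and 3 on centred TPM. In TMD8 0 were higher and 9 lower on log2(TPM + 1), 8 and 6 by library size, and 9 and 5 without the 6 highest rows. The translation release factors ETF1 and GSPT1, which hand the terminating ribosome to that pathway, fell by 0.71 and 0.95 in TMD8. In OCI-Ly1 GSPT1 was at -0.27 and ETF1 at -0.15, both called with TMM, but neither was called on log2(TPM + 1) (-0.13 and -0.01) or without the 6 highest rows (-0.01 and 0.11). PNRC2 fell by 0.72 in TMD8; its value of -0.33 in OCI-Ly1 was -0.19 on log2(TPM + 1) and -0.08 without the 6 highest rows, neither called. SMG9 rose by 0.54 and 0.15, but the TMD8 value was not called with DESeq2 (0.14) and was -0.20 on the TPM scale. Of the 6 exon junction complex genes, 1 was higher and 3 lower in OCI-Ly1 (median -0.13, 0.12 without the 6 rows) and 0 higher and 5 lower in TMD8 (median -0.39). RBM8A fell by 0.63 and RNPS1 by 0.55 in TMD8, and MAGOHB by 0.44. In OCI-Ly1 RBM8A fell by 0.15 and RNPS1 by 0.14, both 0.11 without the 6 rows, and MAGOHB was not called, at -0.04 with TMM and 0.21 without the 6 rows. EIF4A3 fell by 0.48 and 0.23, but in TMD8 it was not called without the 6 highest rows (-0.05, limma adjusted p = 0.204).

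Of 10 mRNAs reported as sensitive to nonsense-mediated decay, 7 were higher and 1 lower in OCI-Ly1 (median 1.12), and 7 higher and 2 lower in TMD8 (median 1.20). ATF3 went from 0.379 ± 0.195 to 28.5 ± 4.97 CPM in OCI-Ly1 (6.13 on the log2 scale) and from 46.2 ± 0.527 to 100.2 ± 2.12 CPM in TMD8 (1.12). DDIT3 rose by 2.96 and 2.94 and GADD45B by 2.40 and 2.67. GADD45A rose by 3.11 in TMD8, while its change of 0.18 in OCI-Ly1 was not called (edgeR adjusted p = 0.0778). These are also genes that cells transcribe under stress, and transcription and decay cannot be told apart in these libraries. Set beside them, 3 of the 10 members were called higher and 2 lower in OCI-Ly1, beside 27.7% and 25.9% of all genes. In TMD8 4 were higher and 5 lower, beside 29.9% and 30.7%. GAS5, SNHG1 and ZFAS1 rose by 0.80, 0.46 and 0.88 in OCI-Ly1, whereas SNHG3, SNHG4 and SNHG16 fell in the same libraries. In TMD8 GAS5 was not called with TMM (0.04), and the smaller rise of ZFAS1 changed sign on the TPM scale. SNHG12 rose there by 0.65, while SNHG1, SNHG3, SNHG4, SNHG15 and SNHG16 fell. A link between the hosts and these mRNAs was not tested.

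**Figure D5:**
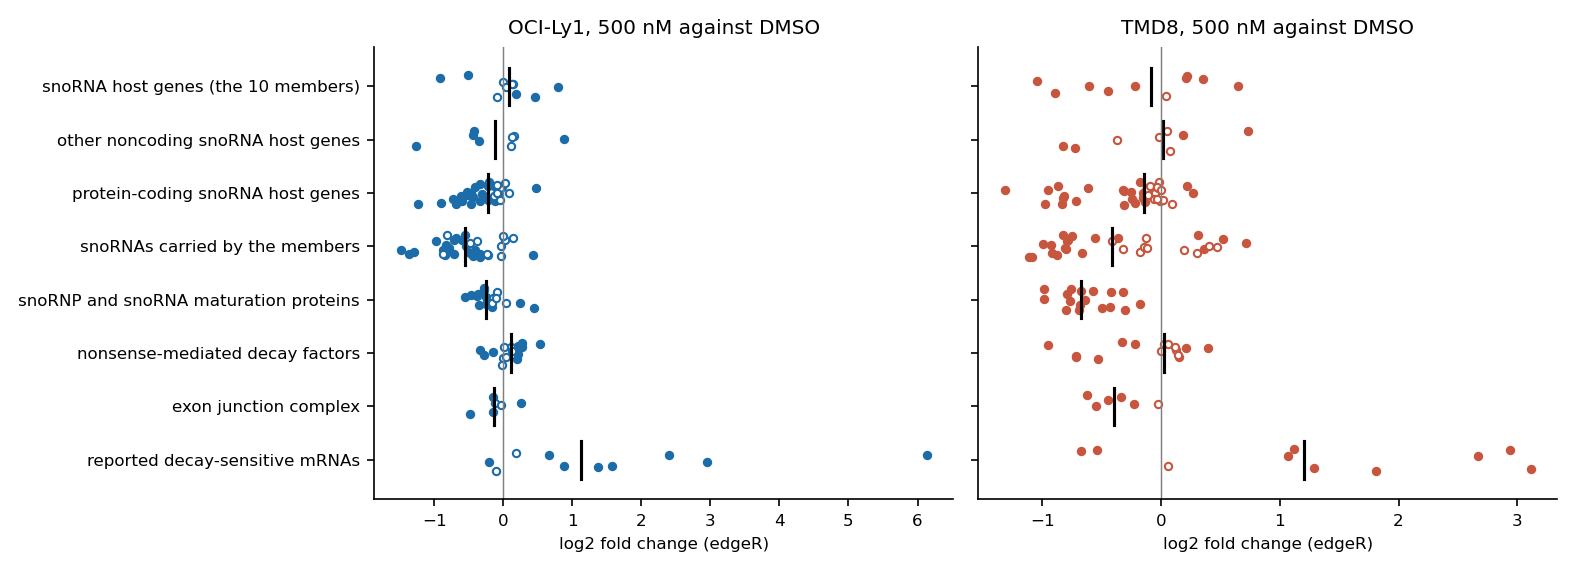
Log2 fold change at 500 nM against DMSO from edgeR (x axis) of each tested gene of the 10 hosts and of the lists described (y axis), a panel per line with its own x scale; points are genes, filled where called, and bars are list medians. The snoRNP and maturation proteins in TMD8 have a median of -0.67 with 17 of 17 called lower, and the decay-sensitive mRNAs have medians of 1.12 in OCI-Ly1 and 1.20 in TMD8.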

How the data were processed

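Bulk RNA of OCI-Ly1 and TMD8 cells was measured in 18 libraries, grouped by the labels into 6 groups of 3 (DMSO, 150 nM and 500 nM JIB-04 in each line). The authors deposited, per line, a table of estimated counts per gene symbol, not scaled for depth, and a table of TPM summing to 1000000 per library; per the submitters' processing notes, kallisto 0.46.0, hg19, R 4.3.1 and DESeq2 1.40.2 were named, with no role given. Estimated counts were rounded to whole numbers. Of 23686 symbols, 22689 (95.79%) matched a name table. The annotation used for counting is not given in the sources used here.

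Each line's 9 libraries were fitted with edgeR 4.0.16 (quasi-likelihood, TMM, its filter on low counts, a term per group, no covariate) in R 4.3.3; line differences and the DMSO comparison used 1 fit of all 18. The p-values were adjusted by Benjamini-Hochberg over all genes tested. The length index, log2(count/TPM) with at least 10 counts in every library, was tested with limma 3.58.1, and host to snoRNA ratios by two-sided exact permutation tests. The edgeR, limma and DESeq2 1.42.0 fits were tested on simulated data. Alternatives were library size, DESeq2, no filter, at least 10 counts, the replicate number as a block, only the groups compared, log2(TPM + 1), log2(TPM + 0.1), centred TPM and single libraries left out. TPM without the 6 highest rows of either line, left-out libraries for the ratios and other scalings of the lists were chosen after seeing the data.

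The members and lists were chosen with earlier results of these data known. All 10 members were named, and from each other list at most 4 genes, those with the largest change at 500 nM among genes called in at least 1 line and averaging at least 5 CPM in any group. The 5 most alike genes by Pearson correlation with the members' mean profile were named, and genes starting within 1000 bases of a member's start on the other strand. Within groups, chi-square per degree of freedom between 18 library pairs ran from 1.62 to 10.9. That spread cannot show whether libraries came from separate cultures. Each library was counted as 1 sample, so the p-values measure only the spread between libraries.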

Additional observations from a re-analysis of the deposited data

Results flagged for a closer look

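Members whose response to JIB-04 differed between the lines are listed here, by edgeR's test of the difference itself (the log2 response of OCI-Ly1 less the response of TMD8, ± SE, n = 3 libraries per group). Line and medium changed together, so these are differences between cultures of a line in its medium.

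At 500 nM the difference was 0.97 ± 0.12 for SNHG15 (adjusted p = 3.32e-07), 0.93 ± 0.090 for SNHG1 (5.78e-09), 0.79 ± 0.082 for GAS5 (2.28e-08) and 0.57 ± 0.080 for SNHG16 (2.36e-06). It was 0.23 ± 0.090 for SNHG6 (edgeR adjusted p = 0.0356), -0.28 ± 0.096 for SNHG3 (0.0191) and -0.49 ± 0.11 for SNHG12 (0.000826). SNHG1 was the member that was called in opposite directions in the 2 lines. With TMM, GAS5 was called in OCI-Ly1 and not in TMD8, and SNHG15 the reverse.

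At 150 nM the difference was 0.54 ± 0.090 for SNHG1 (edgeR adjusted p = 0.000103), 0.44 ± 0.12 for SNHG15 (0.00649), 0.44 ± 0.079 for SNHG16 (0.00022) and 0.25 ± 0.089 for SNHG6 (0.0409). It was -0.31 ± 0.093 for SNHG7 (edgeR adjusted p = 0.0149) and -0.44 ± 0.11 for SNHG12 (0.00559). On the TPM scale SNHG3 at 500 nM, SNHG7 at 150 nM and SNHG12 at both doses did not differ past the threshold. No group held enough libraries for a test of single outlying libraries.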

How the results depend on the processing

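Counts of members called moved by more than 1.5 times as follows. In OCI-Ly1 the members higher at 150 nM were 1, in place of 0, with DESeq2 and with no filter. At 500 nM in OCI-Ly1 the members higher were 5, in place of 3, by library size alone, on log2(TPM + 1) and on log2(TPM + 0.1), and 6 without the 6 highest rows. In TMD8 at 150 nM, 2 became 0 on both TPM scales, 1 on centred TPM and 4 without the 6 rows. In TMD8 at 500 nM, 4 became 1 on both TPM scales and 2 on centred TPM. In TMD8 at 500 nM against 150 nM, 1 became 3 by library size, with at least 10 counts and with only the 2 groups compared, 0 on both TPM scales and 4 without the 6 rows. Apart from the fits with a replicate block, given below, the other counts moved by less.

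Leaving out single libraries gave from 0 to 1 members higher at 150 nM in OCI-Ly1, 2 to 4 higher at 500 nM against DMSO and 3 to 4 against 150 nM there. In TMD8 it gave 2 to 3 higher and 3 to 4 lower at 150 nM, 3 to 4 higher at 500 nM, and 1 to 2 higher and 3 to 4 lower at 500 nM against 150 nM. Line differences numbered 4 to 6 at 150 nM and 6 to 8 at 500 nM, and the length index in OCI-Ly1 0 to 1. Some uncalled values near 0 changed sign in these fits, but no value that was called with or without the library did.

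Among values called before or after a change of setting, the sign turned on TPM scales only, and further uncalled values changed sign under other settings too. On log2(TPM + 1) and log2(TPM + 0.1), TMD8 at 500 nM gave GAS5 -0.33 and -0.33, SNHG5 -0.14 and -0.14, SNHG7 -0.072 and -0.073, and SNHG8 -0.20 and -0.21. Of these, only GAS5 was called on those scales (limma adjusted p = 0.0105 and 0.00991). Line differences at 500 nM became 0.18 and 0.20 for SNHG3 and 0.45 and 0.46 for SNHG7. Between the DMSO groups GAS5 was 0.87 and 0.87, SNHG3 0.70 and 0.71, SNHG5 0.83 and 0.84, SNHG7 0.95 and 0.97, SNHG8 0.072 and 0.073, and SNHG16 0.00059 and 0.00062. The values of SNHG8 and SNHG16 there were near 0 and not called, while those of GAS5, SNHG3, SNHG5 and SNHG7 were called on both scales. On centred TPM, SNHG8 in OCI-Ly1 was -0.21 against DMSO and -0.30 against 150 nM, its line difference -0.24, and the DMSO difference 0.15 for GAS5 and 0.23 for SNHG7. Without the 6 rows SNHG6 in OCI-Ly1 at 500 nM was 0.24. The cause was not tested.

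The replicate numbers were not stated to pair the libraries. Pairs of libraries from different groups were correlated over genes by their deviations in log2 CPM from the group means. For same-numbered pairs the correlation of deviations was -0.0462 to 0.146 (OCI-Ly1) or -0.0545 to 0.141 (TMD8), and 2 of 9 pairs were over 0.1 in each line. Of differently numbered pairs, 0 of 18 were over 0.1 in OCI-Ly1 and 1 of 18 in TMD8. The same-numbered pairs over 0.1 all joined DMSO with 150 nM (0.123 and 0.146 in OCI-Ly1, 0.125 and 0.141 in TMD8). Whether the numbers pair those 2 groups cannot be told. With the replicate number as a block, members higher in TMD8 at 500 nM against 150 nM were 2 in place of 1, the length index call in OCI-Ly1 was lost (0 in place of 1), and 88 of 90 single-gene calls did not change. SNHG7 was gained in OCI-Ly1 at 500 nM (0.14, edgeR adjusted p = 0.0432) and in TMD8 against 150 nM (0.17, 0.0401).

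With 3 libraries per group, the exact tests of ratios cannot go below p = 0.1. Some snoRNAs held few counts, such as 11 to 28 per library for SNORD78 at 500 nM in TMD8, which limits single snoRNAs more than their sums.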
